A study of Mus musculus with 6 samples.

Results

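Aquaporins are membrane channels for water, and some of them also pass glycerol or other small solutes. The 9 members described here are Aqp1, Aqp2, Aqp3, Aqp4, Aqp5, Aqp6, Aqp7, Aqp8 and Aqp11. They were taken as a named gene family and found by pairing the Ensembl IDs of the deposited gene tables with mouse symbols. All 9 were found among the 57180 gene IDs listed, and 8 of the 9 had enough counts to be tested. Aqp5 did not.

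In the kidney, water leaves the filtrate along the proximal tubule and thin descending limb mainly through the channel that Aqp1 encodes. In the collecting duct, vasopressin acts on principal cells through cyclic AMP, sends vesicles that carry the Aqp2 channel to the apical membrane and raises Aqp2 transcription. The channels encoded by Aqp3 and Aqp4 sit in the basolateral membrane of the same cells and let the water out towards the blood.

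Whole kidneys of male wildtype C57BL/6J mice were compared, 3 mice per group. The mice were 7 weeks old when purchased. Vehicle mice received deionized water (0 mg/kg) and nanoplastic mice received cationic polystyrene nanoparticles at 200 mg/kg, both by mouth once daily for 6 weeks. The mouse is the replicate, since each library came from 1 animal, and the comparison asked how kidney transcripts differed after the particles. In RNA of a whole kidney, fewer cells of a type and less RNA per cell cannot be told apart.

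Libraries held 19408534 to 26292760 expected counts. The tissue label was checked against proximal tubule markers, whose 9 genes summed to 20195 to 21008 in vehicle and 17934 to 21511 in nanoplastic libraries, in counts-per-million scaled for library composition (CPM). Nanoplastic 1 stood apart from the rest. Its 6 urothelial markers summed to 30.4 CPM against 1.87 to 7.99 CPM in the other 5 libraries, and its 6 adipocyte markers to 146 CPM. Adipocyte markers summed to 42.9 CPM in vehicle 3 and to 6.22 to 7.64 CPM in the remaining 4 libraries. Values that rest on these libraries are therefore also given without them.

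The collecting duct channels Aqp3 and Aqp4, together with Aqp6, were higher in each of the 3 nanoplastic kidneys than in any vehicle kidney. So were 6.54% of all genes tested. No aquaporin passed the main test over all genes, and 0 of 18092 genes did. Among the 8 tested, Aqp4 differed most, at 2.03 times the vehicle mean, and was high in 2 of the 3 nanoplastic kidneys. Aqp2 was high in nanoplastic 1 alone. Aqp1, Aqp7, Aqp8 and Aqp11, which are known mainly from the proximal tubule, overlapped between the groups.

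Promoter sequences for 8 of the 9 aquaporins were in a RefSeq table on build GRCm38.p6, a different build from the GRCm39 of the deposited tables, and were matched by symbol. Aqp4 was not among them. The 250 bases upstream of the start are shown for 3 genes of the collecting duct: Aqp2, the classic target of vasopressin and cyclic AMP, and Aqp3 and Aqp6, whose groups did not overlap. The windows are chr15:99578806-99579055 on the plus strand for Aqp2, chr4:41098184-41098433 on the minus strand for Aqp3, and chr15:99600950-99601199 on the plus strand for Aqp6. Each is written 5′ to 3′ along the gene's strand, and capitals mark a match to a searched motif on either strand.
Aqp2: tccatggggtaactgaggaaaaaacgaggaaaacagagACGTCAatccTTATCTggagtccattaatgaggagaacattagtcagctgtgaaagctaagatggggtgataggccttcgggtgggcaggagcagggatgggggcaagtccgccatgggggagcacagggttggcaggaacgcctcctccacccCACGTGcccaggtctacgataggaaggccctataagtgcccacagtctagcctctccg
Aqp3: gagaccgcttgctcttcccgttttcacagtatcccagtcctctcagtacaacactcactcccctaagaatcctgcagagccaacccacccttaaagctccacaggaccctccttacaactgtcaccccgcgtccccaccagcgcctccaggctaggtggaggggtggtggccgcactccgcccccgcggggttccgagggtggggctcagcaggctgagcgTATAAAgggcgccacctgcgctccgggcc
Aqp6: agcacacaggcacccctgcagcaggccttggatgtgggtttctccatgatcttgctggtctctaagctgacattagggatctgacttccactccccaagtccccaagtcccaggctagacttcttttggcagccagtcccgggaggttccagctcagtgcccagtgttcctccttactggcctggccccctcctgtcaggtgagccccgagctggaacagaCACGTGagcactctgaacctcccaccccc

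The motifs searched, on both strands, began with the cyclic AMP response element, TGACGTCA. Its shortened form, TGACGT, lies inside the full one. The others were the TATA box, with the letters TATAAA. The GATA site was searched as AGATAA. For the E-box the letters were CACGTG. The shortened cyclic AMP element matched in Aqp2 alone among the 8 genes, on the opposite strand and beginning 212 bases before the start. It is held by 6.47% of the 32851 windows of this length in the table. The full element, held by 1.55% of windows, matched in none of the 8. The Aqp2 window also held a GATA site (9.99% of windows) 202 bases and an E-box (6.02%) 58 bases before the start. Aqp3 held a TATA box (12.4%) 29 bases before its start, and Aqp6 an E-box 29 bases before its start. Aqp5 and Aqp8 held an E-box and Aqp7 a GATA site, and in Aqp1 and Aqp11 none of the motifs matched. These matches describe letters in a window and were not tied to binding. By RefSeq gene order Aqp2, Aqp5 and Aqp6 follow one another on chromosome 15, and Aqp7 and Aqp3 on chromosome 4.

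Levels of different genes were compared in the authors' TPM, a share of transcripts that takes their length into account. Aqp1 was the most abundant aquaporin, with a mean of 139 TPM over the 6 libraries (119 to 169.8 TPM). It made up 68.0% to 71.2% of the summed aquaporin TPM in 5 libraries and 56.5% in nanoplastic 1. Aqp2 followed at a mean of 30.5 TPM and Aqp3 at 16.8 TPM. The ranges of Aqp2 and Aqp3 overlapped across libraries, although Aqp2 was above Aqp3 in 6 of 6 libraries. Aqp11, Aqp4 and Aqp7 had means of 7.05, 5.99 and 4.41 TPM, and neighbours in that order did not differ beyond the spread of the libraries. Aqp11 was above Aqp4 in 4 of 6 libraries, and nanoplastic 1 and 2 were the exceptions. Aqp6 (1.78 TPM), Aqp8 (0.508 TPM) and Aqp5 (0.143 TPM) were rarer, and the ranges of Aqp8 and Aqp5 overlapped.

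**Figure D1:**
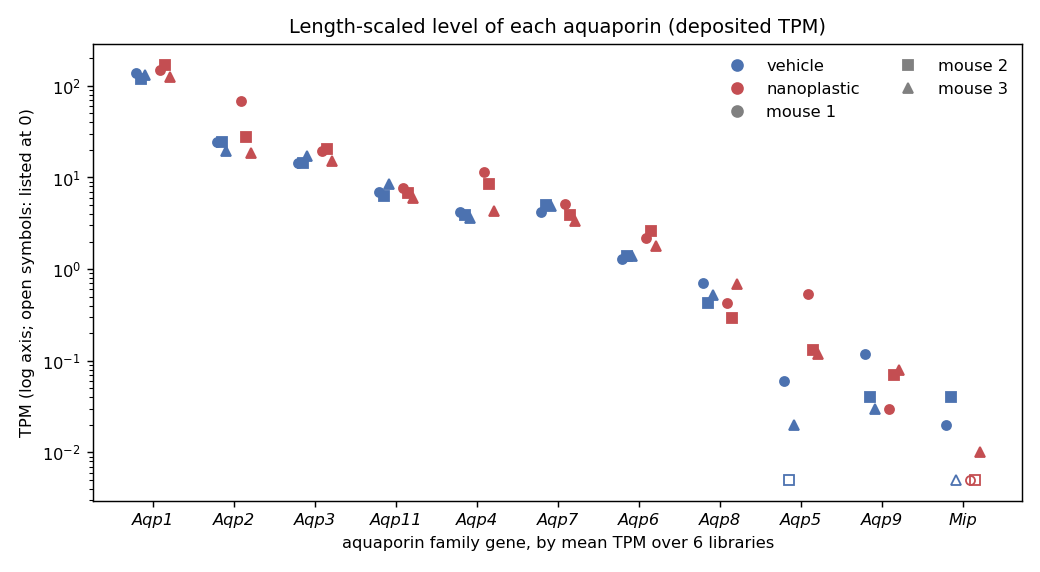
Deposited TPM on a log axis for each aquaporin family gene with a count, ordered by the mean over 6 libraries, with vehicle libraries in blue, nanoplastic libraries in red and 1 symbol per mouse number. Aqp1 lies above all other genes in every library, and values listed at 0 are drawn as open symbols at the bottom.

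The remaining members of the family were near or at the limit of detection. Aqp9, an aquaglyceroporin of the liver, had 23 counts over the 3 vehicle and 18 over the 3 nanoplastic libraries. Mip, the lens channel once called Aqp0, had 6 and 1 counts. Aqp12, known from the pancreas, had 0 counts in all 6 libraries, which allows up to 3 counts in each.

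Aqp2 (ENSMUSG00000023013) encodes the apical channel that vasopressin controls. It measured 58.8, 61.7 and 43.3 CPM in vehicle 1, 2 and 3, and 149, 61.1 and 46.1 CPM in nanoplastic 1, 2 and 3. Nanoplastic 1 was 2.72 times the vehicle mean, while the other nanoplastic mice lay within the vehicle range. The group means were 54.6 ± 9.90 and 85.3 ± 55.4 CPM (SD, n = 3 each). The log2 fold change was 0.65 (SE 0.34, 95% interval -0.11 to 1.41), with a Benjamini-Hochberg adjusted p of 0.708 in edgeR's quasi-likelihood test. Without nanoplastic 1 it was -0.02, so the sign of the difference rested on that kidney.

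Aqp3 (ENSMUSG00000028435) encodes a basolateral channel of principal cells that also passes glycerol. It measured 44.5, 40.4 and 45.8 CPM in vehicle 1, 2 and 3, and 53.0, 53.9 and 46.9 CPM in nanoplastic 1, 2 and 3. The groups did not overlap, but nanoplastic 3 was above vehicle 3 by only about 1 CPM. The means were 43.6 ± 2.83 and 51.3 ± 3.84 CPM (SD, n = 3 each). Its log2 fold change was 0.24 (SE 0.08, 95% interval 0.06 to 0.41; edgeR adjusted p = 0.579). Urothelium also expresses Aqp3. The urothelial marker sums were 30.4 and 3.26 CPM in nanoplastic 1 and 2. Without vehicle 3 and nanoplastic 1 the log2 fold change of Aqp3 was 0.25. The part of urothelium in the Aqp3 value was not tested.

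Aqp4 (ENSMUSG00000024411) encodes the other basolateral channel of principal cells and is better known from the glia of the brain. It measured 31.0, 31.5 and 27.7 CPM in vehicle 1, 2 and 3, and 82.8, 63.9 and 36.2 CPM in nanoplastic 1, 2 and 3. Vehicle mice lay close together, nanoplastic 1 and 2 were far above them, and nanoplastic 3 was just above the highest vehicle mouse. The group means were 30.1 ± 2.10 and 61.0 ± 23.4 CPM (SD, n = 3 each), so the spread was much wider among nanoplastic mice. The log2 fold change was 1.03 (SE 0.22, 95% interval 0.53 to 1.52). In edgeR's quasi-likelihood test the adjusted p was 0.319, and Aqp4 ranked 45 of 18092 genes by p. Without nanoplastic 3 the log2 fold change was 1.29 and the adjusted p was 0.0124, the only gene of 18643 tested (0.00536%) to pass. Without vehicle 3 and nanoplastic 1, the libraries with adipocyte transcripts, it was 0.69 with an edgeR adjusted p of 0.279. In an older form of edgeR's quasi-likelihood test the adjusted p was 0.353. That form run without the filter on low counts gave 1.11e-06 and called 0.661% of 31335 genes, while the newer form without the filter gave 0.218.

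Glia and skeletal muscle, 2 other sources of Aqp4 transcripts, showed few marker counts. Whether kidney cells other than principal cells held Aqp4 transcripts was not tested. Gfap, the astrocyte filament gene, had 0 to 2 counts per library, and the 4 skeletal muscle markers summed to at most 0.325 CPM, with Myh4 at 0 in all 6 libraries. The 4 glial markers, of which 2 passed the count filter, summed to 1.69 to 2.69 CPM in vehicle and 2.05 to 3.21 CPM in nanoplastic libraries.

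**Figure D2:**
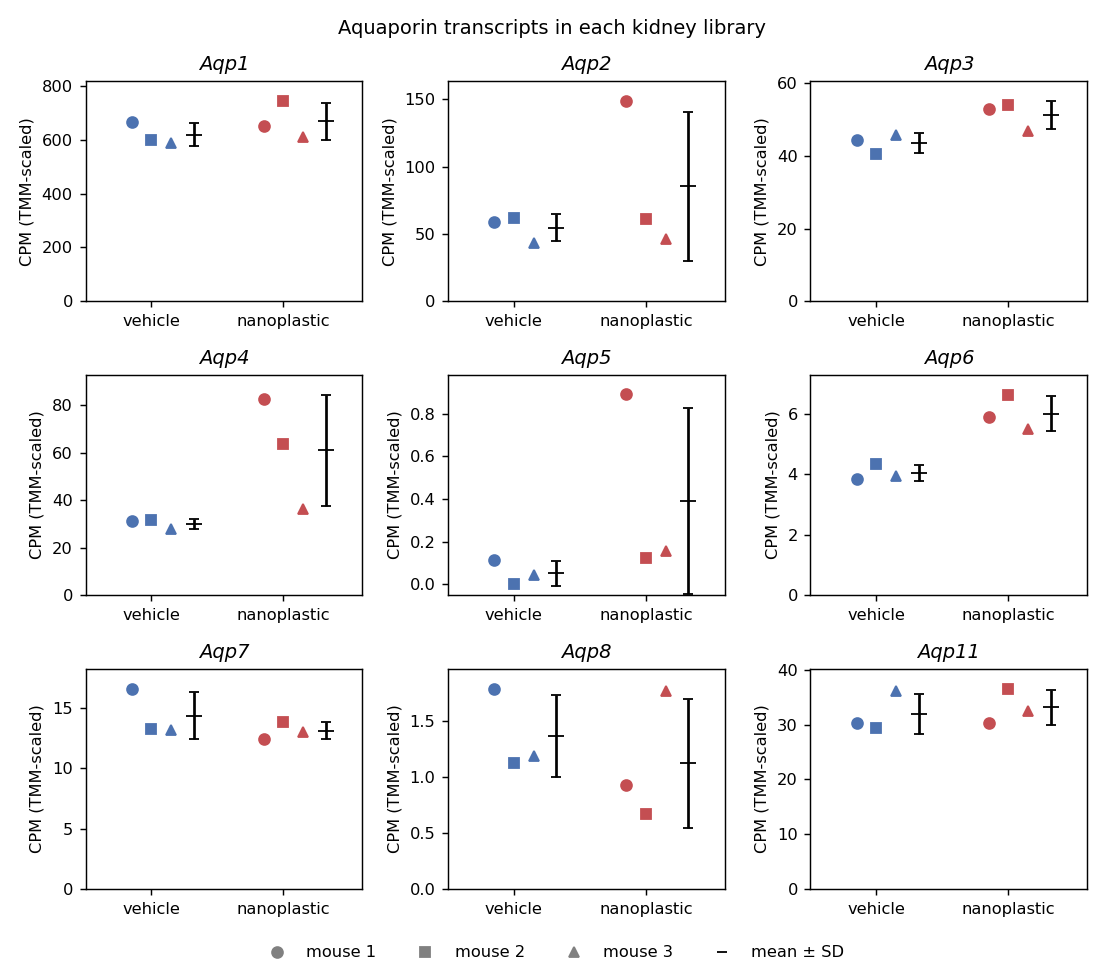
Level of each aquaporin in CPM by library, with 1 symbol per mouse number and the mean ± SD of 3 mice in black beside each group. Aqp3, Aqp4 and Aqp6 have nanoplastic libraries above all vehicle libraries, Aqp2 is high in nanoplastic 1 alone, and Aqp5 rests on 22 counts in nanoplastic 1.

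Relative to the summed principal cell markers, Aqp4 was also higher in nanoplastic kidneys. The 10 principal cell markers, which include the sodium channel subunits Scnn1b and Scnn1g, summed to 209 to 225 CPM in vehicle and to 251, 201 and 215 CPM in nanoplastic 1, 2 and 3. The ratio of Aqp4 to this sum was 0.138, 0.140 and 0.132 in vehicle mice and 0.330, 0.318 and 0.169 in nanoplastic mice. These ratios did not overlap between the groups. The sum rests mostly on its most abundant genes, Npnt, Scnn1g, Scnn1b and Tmem45b. Tmem45b, Fxyd4, Elf5, Avpr2, Gata3 and, by a small margin, Hsd11b2 were highest in nanoplastic 1. Npnt, Scnn1g, Scnn1b and Kcne1 were not. Whether the ratio allows for the cells in each kidney was not tested. The same ratio for Aqp2 was 0.261, 0.275 and 0.207 in vehicle and 0.593, 0.304 and 0.215 in nanoplastic mice, with nanoplastic 3 inside the vehicle range. For Aqp3 it was 0.180 to 0.219 in vehicle and 0.211 to 0.269 in nanoplastic mice, which overlapped. Set against Aqp3 in place of the marker sum, Aqp4 did overlap between the groups. That ratio, in CPM, was 0.697, 0.78 and 0.603 in vehicle 1, 2 and 3. It was 1.56, 1.18 and 0.774 in nanoplastic 1, 2 and 3, so nanoplastic 3 was below vehicle 2. Of the 10 principal cell markers 7 had a positive and 3 a negative log2 fold change, with a median of 0.11, and 0 passed the test. At an unadjusted p under 0.05 there were 0 as well, where edgeR gave 7.42% of all genes tested. After adjustment edgeR called 0 of 18092 genes.

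Aqp5 (ENSMUSG00000044217), a channel best known from glands and lung, was below the count filter. It had 3, 0 and 1 counts in vehicle 1, 2 and 3 and 22, 3 and 3 counts in nanoplastic 1, 2 and 3. Nanoplastic 1, the library with the highest Aqp2 level, held most of them, and the other nanoplastic libraries had as many counts as vehicle 1. Aqp2 is the neighbour of Aqp5 on chromosome 15, as is Aqp6, which was highest in nanoplastic 2. Nanoplastic 1 also had the highest urothelial and adipocyte marker sums, at 30.4 and 146 CPM. The source of its Aqp5 counts was not tested.

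Aqp6 (ENSMUSG00000043144) encodes an anion-permeable channel in vesicles of acid-secreting intercalated cells. It measured 3.86, 4.34 and 3.95 CPM in vehicle 1, 2 and 3, and 5.89, 6.64 and 5.51 CPM in nanoplastic 1, 2 and 3. Every nanoplastic mouse was above every vehicle mouse in CPM, with a narrow spread inside each group. In counts the gap was small, since nanoplastic 3, the smallest library, had 106 and vehicle 2 had 100. The means were 4.05 ± 0.253 and 6.01 ± 0.573 CPM (SD, n = 3 each), from 93 to 159 counts per library. Its log2 fold change was 0.58 (SE 0.14, 95% interval 0.26 to 0.90; edgeR adjusted p = 0.448). With any 1 library left out and in the other settings tried it stayed between 0.50 and 0.65. The 6 intercalated cell markers, among them the anion exchangers Slc4a1 and Slc26a4, summed to 225 to 259 CPM in vehicle and 185 to 277 CPM in nanoplastic libraries. They overlapped, with 3 positive and 3 negative log2 fold changes and 0 past the threshold or at an unadjusted p under 0.05. Over all genes tested, edgeR gave 0 of 18092 past the threshold and 7.42% at an unadjusted p under 0.05. The library with the lowest intercalated sum, nanoplastic 1, had 1.45 times the vehicle mean of Aqp6. The part of cell content in the Aqp6 value was not tested.

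Aqp1 (ENSMUSG00000004655) encodes the constitutive water channel of proximal tubule, thin descending limb, vasa recta and red blood cells. It measured 666, 599.9 and 587 CPM in vehicle 1, 2 and 3, and 649.7, 743 and 611 CPM in nanoplastic 1, 2 and 3. The groups overlapped, and nanoplastic 2 was the highest. The means were 618 ± 42.6 and 668 ± 67.7 CPM (SD, n = 3 each), with a log2 fold change of 0.11 (SE 0.09, 95% interval -0.08 to 0.31). The 5 erythrocyte markers had negative log2 fold changes in 5 of 5 genes, with a median of -0.49. Of them 0 passed the edgeR test, as did 0 of 18092 genes. All 5 were lower at an unadjusted p under 0.05, as 3.61% of all genes tested were. They summed to 579 to 861 CPM in vehicle and 488 to 626 CPM in nanoplastic libraries. Endothelial markers overlapped, at 320.4 to 337 CPM and 319.9 to 367 CPM. The part of these cells in the Aqp1 value was not tested.

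Aqp7 (ENSMUSG00000028427), an aquaglyceroporin of the proximal straight tubule and of fat cells, measured 16.6, 13.2 and 13.2 CPM in vehicle 1, 2 and 3. In nanoplastic 1, 2 and 3 it measured 12.5, 13.9 and 13.0 CPM. Vehicle 1 was the highest and the groups overlapped. The log2 fold change was -0.13 (SE 0.11, 95% interval -0.38 to 0.12). Nanoplastic 1, with the highest adipocyte sum, had the lowest Aqp7 level of the 6 libraries. The part of fat cells in the Aqp7 value was not tested.

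Aqp8 (ENSMUSG00000030762), a channel found inside cells and in mitochondria, had 46, 26 and 28 counts in vehicle and 23, 16 and 34 counts in nanoplastic mice. Its levels were 1.37 ± 0.367 and 1.12 ± 0.574 CPM (SD, n = 3 each), and nanoplastic 3 was close to vehicle 1, the highest. The 95% interval of its log2 fold change ran from -1.16 to 0.45, so both no change and a 2-fold lower level lay within it.

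Aqp11 (ENSMUSG00000042797) encodes an intracellular channel of the proximal tubule, and mice without it develop cystic kidneys. It measured 30.3, 29.3 and 36.1 CPM in vehicle 1, 2 and 3, and 30.4, 36.6 and 32.6 CPM in nanoplastic 1, 2 and 3. The groups overlapped throughout. Its log2 fold change was 0.06 (SE 0.10, 95% interval -0.16 to 0.28), which leaves out a change of 1.5-fold in either direction. Proximal tubule markers had 3 positive and 6 negative log2 fold changes among 9 genes. Of these 0 passed the threshold, as did 0 of 18092 genes tested.

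Counted over the family, 0 of the 8 tested aquaporins had an edgeR adjusted p under 0.05, as did 0 of 18092 genes (0%). At an unadjusted p under 0.05 there were 3 higher (Aqp3, Aqp4 and Aqp6) and 0 lower, where 3.80% of all genes tested were higher and 3.61% lower at that level. limma-voom gave the same numbers of 3 and 0. DESeq2, run without this count filter, gave 4 and 0 before adjustment, Aqp5 being the fourth with no adjusted p given, and 0 after it, when it called 0.440% of the genes to which it gave an adjusted p. The nanoplastic libraries were all above the vehicle libraries in 3 of 8 aquaporins, where 6.54% of all genes were. The log2 fold change was above 0 in 6 of the 8, as in 52.0% of all genes, and its median was 0.17 over the 8 and 0.01 over all genes tested. With so few members these shares describe the 8 genes and no more.

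**Figure D3:**
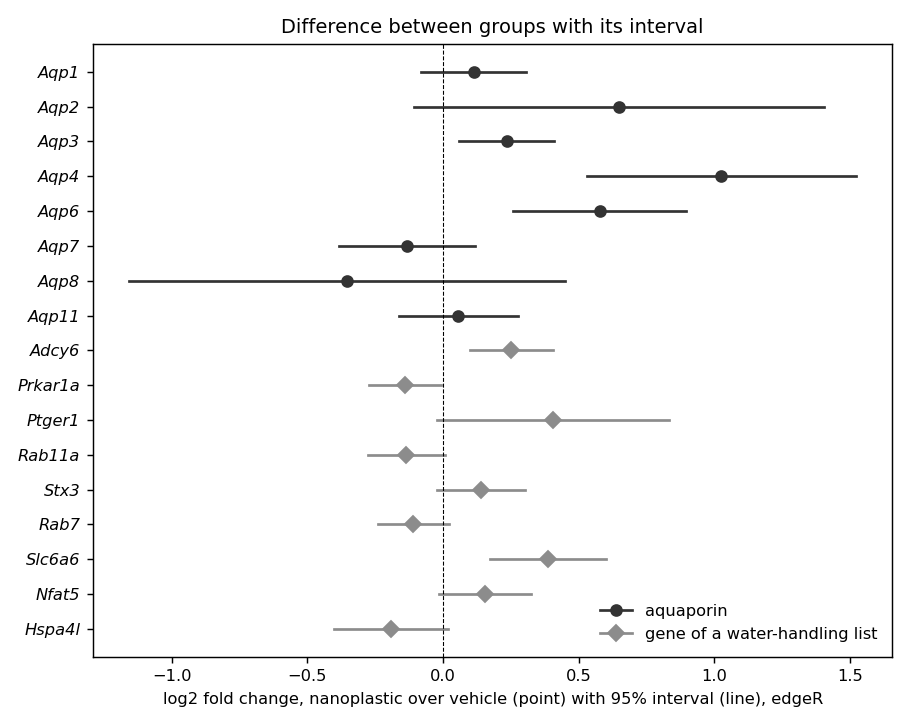
Log2 fold change of nanoplastic over vehicle with its 95% interval from edgeR for the 8 tested aquaporins (circles) and for 3 genes of each of 3 water-handling lists (diamonds). The intervals of Aqp3, Aqp4 and Aqp6 lie above 0, those of Aqp2 and Aqp8 are the widest, and no gene shown passed after adjustment over all genes.

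Genes of vasopressin signalling and Aqp2 transcription, a list that also holds prostaglandin receptors, Hsd11b2 and Nr3c2, showed no difference that passed. Of 26 genes of vasopressin signalling and Aqp2 transcription, 0 had an adjusted p under 0.05 in edgeR, limma-voom or DESeq2. The median log2 fold change was 0.03, with 15 positive and 11 negative, where 52.0% of all genes tested were positive. Before adjustment edgeR and limma-voom each gave 1 higher and 1 lower, and DESeq2 gave 2 higher and 0 lower. Over all genes tested, edgeR gave 3.80% higher and 3.61% lower at that level. After adjustment edgeR and limma-voom called 0 of 18092 genes, and DESeq2 called 0.440% of those with an adjusted p. The nanoplastic libraries were all above the vehicle libraries in 3 of the 26 and all below in 1. Among all genes tested these shares were 6.54% and 6.32%. Adcy6, the main adenylyl cyclase that makes cyclic AMP in principal cells, measured 81.3, 80.3 and 92.7 CPM in vehicle and 100.2, 101 and 102 CPM in nanoplastic mice. The groups did not overlap (log2 fold change 0.25, SE 0.07, edgeR adjusted p = 0.501). Prkar1a, a regulatory subunit that holds protein kinase A inactive, measured 101, 104 and 100.1 CPM in vehicle and 94.0, 94.5 and 88.2 CPM in nanoplastic mice (log2 fold change -0.14, SE 0.06, edgeR adjusted p = 0.664). Ptger1, which encodes a receptor for prostaglandin E2, differed by a log2 fold change of 0.41 (SE 0.19) and was highest in nanoplastic 1 at 20.2 CPM. Without nanoplastic 1 its log2 fold change was 0.12, as it was without vehicle 3 and nanoplastic 1. The receptor Avpr2 measured 13.7, 11.4 and 10.1 CPM in vehicle and 17.1, 8.85 and 9.57 CPM in nanoplastic mice, so it overlapped and was highest in nanoplastic 1, as Aqp2 was. It is named after its value was seen.

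The machinery that moves and degrades the Aqp2 channel also showed no difference that passed. Of 28 genes of Aqp2 vesicle traffic and turnover, 12 had a positive and 16 a negative log2 fold change, with a median of -0.04. None passed in edgeR, limma-voom or DESeq2, and 0 had an unadjusted p under 0.05 in any of them. Over all genes tested, edgeR and limma-voom called 0 of 18092, and DESeq2 called 0.440% of those with an adjusted p. At an unadjusted p under 0.05 the edgeR share was 7.42%. The nanoplastic libraries were all below the vehicle libraries in 4 genes and all above in 0, where 6.32% of all genes tested were below. The 4 were Rab11a, Rab11b, Vamp3 and Rab7, which are named after their values were seen. Rab11a, the small GTPase of recycling vesicles, measured 64.1, 65.8 and 67.3 CPM in vehicle and 57.5, 63.2 and 58.9 CPM in nanoplastic mice. Its log2 fold change was -0.13 (SE 0.06), or -0.085 without vehicle 3 and nanoplastic 1. That of Rab7, the GTPase of late endosomes, was -0.11 (SE 0.06). Stx3, an apical membrane fusion protein, had a log2 fold change of 0.14 (SE 0.07).

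High salt in the renal medulla also drives Aqp2 transcription, through the factor that Nfat5 encodes. Of 9 genes of the tonicity response and urea transport, 6 had a positive and 3 a negative log2 fold change, with a median of 0.16. Over all genes tested, edgeR gave 52.0% positive and 3.80% higher at an unadjusted p under 0.05. DESeq2 called 0.440% of the genes to which it gave an adjusted p, while edgeR and limma-voom called 0 of 18092. In edgeR and limma-voom 0 of the 9 passed and 1 was higher before adjustment, and DESeq2 called 1 higher. That gene was Slc6a6, the taurine carrier, with 275, 237 and 291 CPM in vehicle and 342, 393 and 314 CPM in nanoplastic mice. Its groups did not overlap (log2 fold change 0.39, SE 0.10), and its adjusted p was 0.448 in edgeR and 0.0223 in DESeq2. Run with the older form of edgeR's test and no filter on low counts, it was 0.00996. Nfat5 had a log2 fold change of 0.16 (SE 0.08), which was 0.08 without nanoplastic 1. Hspa4l, a chaperone, had one of -0.19 (SE 0.10).

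Markers of the medulla differed between single kidneys. The 5 thin limb markers, among them the urea transporter Slc14a2, summed to 88.2, 82.1 and 54.0 CPM in vehicle 1, 2 and 3 and to 113, 89.0 and 43.6 CPM in nanoplastic 1, 2 and 3. The order of the nanoplastic mice was the same as for Aqp2 and Aqp4, and the part of the medulla in each sampled kidney was not tested. Vehicle 3, with the lowest thin limb sum among controls, also had the lowest Aqp2 and Aqp4 of the vehicle mice. Aqp3 and Aqp6 did not follow this order, since both were highest in nanoplastic 2.

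**Figure D4:**
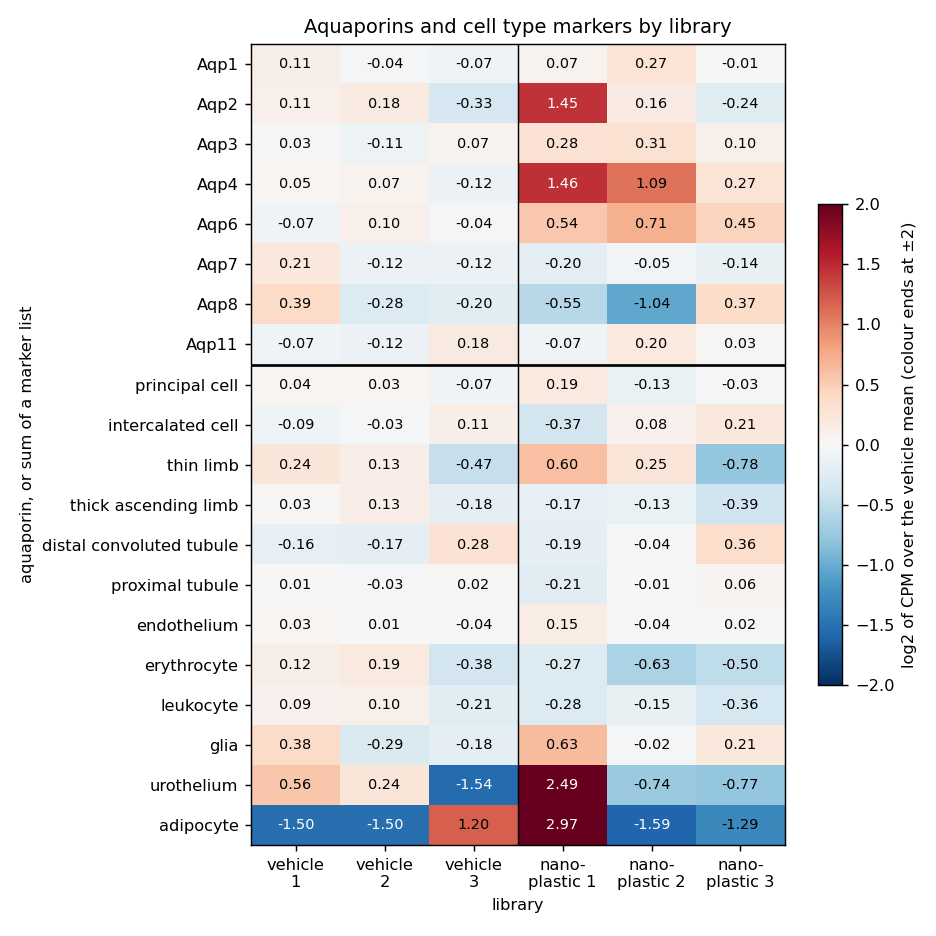
Log2 of the level in each library over the mean of the 3 vehicle libraries, for the 8 tested aquaporins (top) and for the summed CPM of cell type marker lists (bottom), with the colour ending at 2 in either direction. Aqp4 and Aqp6 are above the vehicle mean in each nanoplastic library, while the urothelial and adipocyte sums are highest in nanoplastic 1.

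The genes closest to Aqp4 in pattern were found by the root mean square difference of centred log2 CPM over the 6 libraries, among 13902 other named genes. They were Depp1 (0.155), Amy1 (0.228) and Kcnt1 (0.244). Depp1, a gene induced by FOXO factors, measured 3.08, 3.64 and 2.46 CPM in vehicle and 7.68, 7.51 and 3.12 CPM in nanoplastic mice. Kcnt1, a potassium channel gated by sodium, measured 8.73, 7.85 and 6.37 CPM in vehicle and 14.1, 15.2 and 6.86 CPM in nanoplastic mice. Both were high in nanoplastic 1 and 2 and within the vehicle range in nanoplastic 3. Amy1, an amylase, has near-identical copies that can share its reads. For Aqp7, the aquaporin with the lowest p among those with a negative difference, the closest genes were Rdh5 (0.0209), Ttf2 (0.0356) and Dut (0.0444), all of them with small differences between libraries.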

How the data were processed

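Kidney RNA of 6 mice was sequenced, 1 library per mouse. The submitters' processing notes name RSEM 1.3.3, STAR 2.7.9a, Trim Galore 0.6.6 and FastQC, and the build GRCm39. Neither the annotation release nor the strand setting is given in the sources used here. Per the file headers, the tables deposited by the authors hold RSEM expected counts, TPM and FPKM for each gene and library. The expected counts are not normalized, TPM was deposited as a length-scaled share and used here for levels between genes and in 1 alternative, and the deposited FPKM was not used. Symbols came from a GENCODE table that named 51884 of 57180 IDs.

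Rounded expected counts were filtered with filterByExpr (18092 genes kept), scaled by TMM and fitted with edgeR 4.0.16 in R 4.3.3, using its newer quasi-likelihood method with group as the only term. The Benjamini-Hochberg adjustment ran over all genes tested, and the threshold was 0.05. A standard error is the log2 fold change over the root of F. CPM values are TMM-scaled. The median 95% interval reached 0.281 log2 units to either side. On simulated counts for these 18092 genes the step called 12.7% of genes changed 1.25-fold, 60% of those changed 1.5-fold, 71.3% at 2-fold and 94% at 3-fold. Over all runs 150 genes were changed at each fold, drawn from genes above a floor of mean level. Many changed genes ease the Benjamini-Hochberg adjustment, and the real fit called 0 of 18092 genes. These shares are therefore not the power to detect a change in a single aquaporin.

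Named genes are the 9 aquaporins, Mip, Aqp9 and Aqp12, the 3 genes with the lowest p of each pathway list, up to 2 markers of each cell type list, and the 3 genes nearest in pattern to Aqp4 and to Aqp7, the aquaporins with the lowest p for each sign. The members and the lists were chosen with earlier results of these data known. Alternatives were DESeq2 1.42.0, limma-voom (limma 3.58.1), other scalings, no filter, log2(TPM + 0.1), a replicate block and leaving out libraries. Leaving out vehicle 3 and nanoplastic 1 together and the older edgeR method were added after seeing the data. The older method had been run first, and the newer one was made the main method after its results and those of several other dispersion options were seen, because it gave the counts of an earlier analysis of these libraries.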

Additional observations from a re-analysis of the deposited data

How the results depend on the processing

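Each count and log2 fold change was recomputed under up to 16 other settings. The number of aquaporins past the threshold was 0 in all of them except without nanoplastic 3 and with the older edgeR method run without the count filter, where it was 1 (Aqp4), so that leaving out single libraries gave 0 to 1. For the tonicity and urea genes DESeq2 and the older method without the filter gave 1 (Slc6a6) and all other settings 0, and for the vasopressin and vesicle traffic genes each setting gave 0. Aqp1, Aqp3, Aqp4, Aqp6, Aqp7 and Aqp8 kept their direction in every setting that gave a value. The log2 fold change of Aqp2 ran from -0.02 without nanoplastic 1 to 0.942 without nanoplastic 3, and was -0.161 without vehicle 3 and nanoplastic 1 together. That of Aqp11 ran from -0.021 without nanoplastic 2 to 0.154 without vehicle 3, was 0.219 without vehicle 3 and nanoplastic 1 together, and was -0.086 with log2(TPM + 0.1), a setting that also turned Rab11a to 0.032. The cause was not tested. The older and newer edgeR methods called the same aquaporins in 11 of 12 settings and differed in 1, the run without the count filter.

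With the replicate number as a block, 0 aquaporins passed. The deviations of same-numbered libraries correlated at 0.0542, -0.0401 and 0.121 over genes, and not every value was over 0.1. Vehicle 1 and 3 correlated best with their own number and vehicle 2 with nanoplastic 1, so the libraries were taken to share only a number. Reads carry no molecular identifiers. Each group held 3 mice, and Aqp5 and Aqp8 had few counts.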

Other observations

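Some genes of the tonicity and principal cell lists were highest in nanoplastic 1, as Aqp2 was. They are named here after their values were seen. Akr1b3, the aldose reductase that makes sorbitol as an osmolyte, measured 69.4, 77.2 and 53.4 CPM in vehicle 1, 2 and 3 and 260.4, 55.4 and 48.8 CPM in nanoplastic 1, 2 and 3. Slc6a12, the betaine carrier, measured 0.468, 0.477 and 0.425 CPM in vehicle and 2.07, 0.710 and 0.104 CPM in nanoplastic mice, so nanoplastic 2 was also above the vehicle mice. Elf5, a transcription factor of principal cells, measured 1.13, 1.47 and 0.552 CPM in vehicle and 4.67, 0.877 and 0.936 CPM in nanoplastic mice. Fxyd4, a regulator of the sodium pump in the collecting duct, measured 27.9 CPM in nanoplastic 1 and 10.5 to 17.3 CPM in the other 5 libraries, of which nanoplastic 2 was the highest. Slc14a2, the urea transporter of the inner medulla, was not set apart in that kidney, with 35.0 CPM in nanoplastic 1, 33.6 CPM in vehicle 1 and 32.5 CPM in nanoplastic 2. The rest of these lists was mixed. Tmem45b, Gata3, Avpr2 and, by a small margin, Hsd11b2 were also highest in nanoplastic 1, as were Nfat5 and Slc14a1 of the tonicity list. Scnn1b and Kcne1 were lowest there, at 31.1 and 3.45 CPM, while Slc5a3, Slc38a2 and Hspa4l were highest in vehicle 2 and Slc6a6 in nanoplastic 2. The share of all genes that were highest in nanoplastic 1 was not counted.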
